A study of Mus musculus with 6 samples.

Results

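The 8 regulators of epithelial gene expression and splicing described here were measured in developing mouse bile duct cells: the Grainyhead factors Grhl1 and Grhl2, the Ets factors Elf3 and Ehf, the zinc finger factors Klf5 and Ovol1, and the splicing regulators Esrp1 and Esrp2. They were chosen by name and are 8 of the 52550 genes in the table. Grainyhead factors bind DNA through an immunoglobulin-like fold and activate genes of cell junctions, with Cdh1 (E-cadherin) and claudin genes among the best known targets of Grhl2. Elf3 and Ehf belong to the epithelium-specific branch of the Ets family, and Klf5 is a Krüppel-like factor of epithelial progenitors. Ovol1 is a repressor that restrains mesenchymal genes in epithelia, and the Esrp proteins bind pre-mRNA and favour the epithelial exons of transcripts such as Fgfr2. In the liver, bile duct cells (cholangiocytes) arise from hepatoblasts next to the portal vein, and acquire junctions and apico-basal polarity as the duct opens.

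All cells came from Sox9-GFP embryos of the CD-1 strain, in which green fluorescent protein reports Sox9, a factor of biliary cells. The libraries hold RNA of the GFP-positive fraction from a cell sorter, which was fed with enzyme-digested liver that had passed a magnetic column against blood lineages. The only difference between the groups is the stage, E16.5 or E18.5 (embryonic days 16 and 18 in the sample labels), with 3 libraries each, called replicates A, B and C. Each library is a pool of livers, so the spread between libraries is that between pools, and no GFP-negative cells or other tissue serve as a control. Since Sox9 activity set the sort, Sox9 itself is no independent measure of these cells.

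Levels are given in TPM, a share of all transcripts in the library, which is scaled by gene length and by library total and so can be compared between genes. The reads recovered from the TPM came to between 13093937 and 26206374 per library, and each E18.5 library was shallower than each E16.5 library. The sorted cells were not of 1 type. The summed level of 11 cholangiocyte markers was 895 to 2750 TPM at E16.5, against 8405 to 14360 TPM at E18.5, whereas that of 11 hepatoblast markers was 179425 to 228213 TPM at E16.5, against 41454 to 102593 TPM at E18.5. Each sum mostly reflects 1 gene. Spp1 gave 469 to 1767 TPM of the cholangiocyte sum at E16.5 and 6629 to 12121 TPM at E18.5. Alb gave 117854 to 148077 TPM of the hepatoblast sum at E16.5 and 30024 to 70152 TPM at E18.5. Replicate C of E16.5 had the lowest cholangiocyte sum and the highest hepatoblast sum, and its megakaryocyte markers also had the highest sum, 9383 TPM. Replicate A of E16.5 had 2499 TPM of pancreatic acinar transcripts, against 18.2 to 226 TPM in the other libraries. No gene of these lists was at 0 in all libraries. In RNA from sorted pools, fewer cells of a type and less RNA per cell cannot be told apart.

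Short promoter stretches that hold the letters bound by these factors are shown first, because the junction genes described below include known targets of Grhl2. A Grainyhead core (AACCGG, or CCGGTT on the other strand) was found by exact search within the 250 bases before the start in 1847 of 32851 RefSeq promoters of the mouse (GRCm38.p6), or 5.62%. An Ets core (CCGGAA, or TTCCGG on the other strand) was found in 3952 of them, or 12%. Both searches covered both strands. Of the 22 promoters listed for 15 of the 20 junction, polarity and protease genes, 4 held the Grainyhead core, or 18.2%, and 6 held the Ets core, or 27.3%. Among the regulators themselves, Elf3 and Grhl1 are in the RefSeq table, and Elf3 held the Grainyhead core. These matches are a description of letters and do not show binding. The 5 stretches that hold a Grainyhead core are given 5′ to 3′ on the strand of the gene, with the core in capitals. In Cldn7 the capitals also take in an overlapping Ets core.
Elf3, chr1:135258523-135258552, reverse strand: agctcaggttacAACCGGggacgtacgccg
Spint1, chr2:119237285-119237314, forward strand: cggtgggagtacAACCGGcgtgggcggggc
Cgn, chr3:94786608-94786637, reverse strand: gggctggggaccCCGGTTctgggttcccgc
Cldn7, chr11:69965346-69965375, forward strand: gggccaagacTTCCGGTTcaggtgagtgtc
Ocln, chr13:100552567-100552596, reverse strand: agcgcacggagcAACCGGctaggggctcgg
The Elf3 and Ocln stretches lie within exons of the GENCODE annotation, the Cldn7 stretch lies in part within one, and those of Spint1 and Cgn lie outside exons.

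Grhl2, Ehf and Esrp1 were higher in each E18.5 library than in any E16.5 library, and Grhl2 and Ehf passed the test. Grhl2 was 2.93-fold higher in mean TPM and Ehf 2.99-fold. Their closest relatives in the set, Grhl1, Elf3 and Esrp2, did not pass the test, and each had libraries that overlapped between the stages. Stages were compared with limma on log2(TPM + 1), with Benjamini-Hochberg adjustment over the 22452 genes that averaged 1 TPM or more, and a gene was called when its adjusted p was under 0.05. Of the genes tested, 31.2% were called (26% higher and 5.22% lower at E18.5), and 53.3% had stages that did not overlap. Of the 7 regulators tested, 2 were called (28.6%), which is near that background, and 3 had stages that did not overlap. A typical gene was itself higher at E18.5, with a median log2 fold change of 0.42 across the genes tested, and median-of-ratios scaling brought that median to 0.021. Calls were more frequent among genes of higher level: with a filter of 5 TPM, 5573 of 15370 genes were called higher. The shares set beside gene lists below are of all genes tested, whatever their level.

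**Figure D1:**
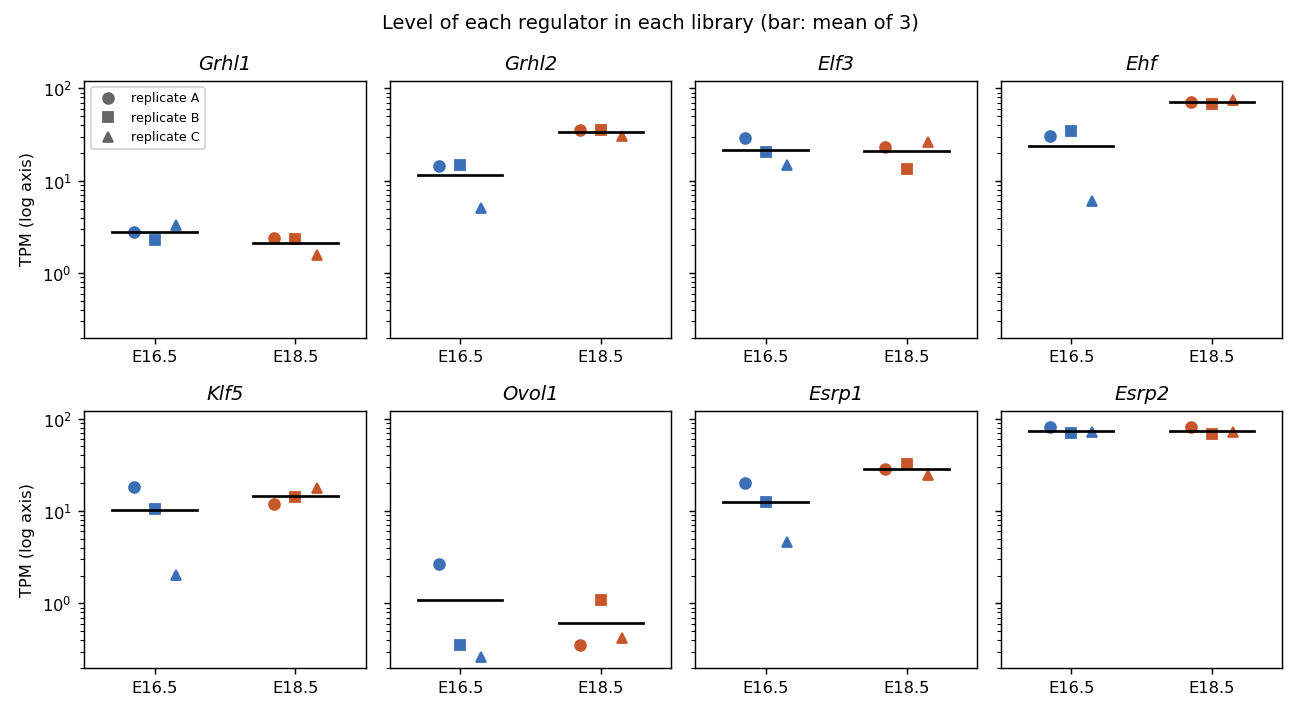
TPM (log axis) of each of the 8 regulators in each of the 6 libraries, by stage, with circle, square and triangle for replicates A, B and C and a bar at the mean of 3. Grhl2, Ehf and Esrp1 do not overlap between the stages, and 5 of the 8 genes are lowest in replicate C of E16.5.

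Grhl2 (ENSMUSG00000022286.15) occupies 37233036 to 37363569 of chromosome 15 (GRCm38), forward strand. Its level was 14.6, 14.9 and 5.03 TPM in E16.5 replicates A, B and C, against 35.0, 35.4 and 30.7 TPM at E18.5. The E18.5 libraries lay close together, and replicate C of E16.5 stood below the other E16.5 libraries. The means were 11.5 ± 5.60 TPM (SD, n = 3) and 33.7 ± 2.58 TPM (SD, n = 3), from 221 to 1319 reads per library. The log2 fold change was 1.60 (SE 0.37, limma adjusted p = 0.0219, 95% interval 0.73 to 2.47). Without replicate C of E16.5 it was 1.14 (SE 0.13, limma adjusted p = 0.0127). The call was lost with median-of-ratios scaling (1.18, limma adjusted p = 0.0556) and without replicate A or B of E18.5 (limma adjusted p = 0.0725 and 0.0694), and it held in 13 of 16 alternatives. Among 21819 coding genes, Grhl2 stood above 61.1% by its mean at E16.5 and above 77.0% at E18.5.

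Grhl1 (ENSMUSG00000020656.16, chromosome 12, 24572283 to 24617391, forward strand), which shares the DNA-binding domain of Grhl2, was much lower. It measured 2.82, 2.27 and 3.28 TPM at E16.5, against 2.40, 2.37 and 1.56 TPM at E18.5, from 35 to 145 reads. The stages overlapped, with the highest value in replicate C of E16.5, the library in which Grhl2 was lowest. The log2 fold change was -0.29 (SE 0.26, limma adjusted p = 0.401), with a 95% interval of -0.90 to 0.32. Grhl3, the family member best known from the skin barrier, was at 1.0 ± 0.376 TPM (SD, n = 3) at E16.5, against 1.87 ± 0.525 TPM (SD, n = 3) at E18.5 and was not called (limma adjusted p = 0.211). Of the more distant CP2 branch of the family, Tfcp2 rose from 23.8 to 40.4 TPM (limma adjusted p = 0.0341) and Ubp1 from 59.7 to 83.8 TPM (limma adjusted p = 0.0316). Both calls were lost in most alternatives, with 0 of the 4 genes called under median-of-ratios scaling. The mean of Tfcp2l1 was 50.7 TPM at E16.5, against 53.0 TPM at E18.5 (limma adjusted p = 0.769). Grhl2 was thus the most abundant Grhl gene at both stages, and Tfcp2, Tfcp2l1 and Ubp1 each had higher means than Grhl2.

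Ehf (ENSMUSG00000012350.15) occupies 103263433 to 103303278 of chromosome 2, reverse strand. Its level was 30.8, 34.9 and 6.03 TPM at E16.5, against 71.2, 68.4 and 75.1 TPM at E18.5. The 3 E18.5 values differed by 1.10-fold from lowest to highest, whereas the E16.5 values differed by 5.80-fold, with replicate C lowest. The means were 23.9 ± 15.7 TPM (SD, n = 3) and 71.6 ± 3.38 TPM (SD, n = 3), from 268 to 2717 reads. The log2 fold change was 1.86 (SE 0.58, limma adjusted p = 0.0481, 95% interval 0.49 to 3.22). This call held in only 5 of 16 alternatives, whose adjusted p ranged from 0.0120 to 0.130. Its size also rested on replicate C of E16.5: without it the log2 fold change was 1.10 (SE 0.11, limma adjusted p = 0.0120). By its mean, Ehf stood above 74.9% of coding genes at E16.5 and above 90.5% at E18.5.

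Elf3 (ENSMUSG00000003051.13, chromosome 1, 135253575 to 135258568, reverse strand), the other epithelial Ets gene of the set, measured 29.3, 20.2 and 14.8 TPM at E16.5, against 23.2, 13.3 and 26.1 TPM at E18.5. Its lowest value was in replicate B of E18.5 and its highest in replicate A of E16.5, the library with acinar transcripts, whose part in this value was not tested. The means were 21.5 ± 7.32 and 20.9 ± 6.70 TPM (SD, n = 3 each). Its log2 fold change was -0.038 (SE 0.32, limma adjusted p = 0.932), with a 95% interval of -0.79 to 0.71, which takes in changes of either sign. Elf3 shares 7.31% of its exon sequence with Gm26642 on the opposite strand, and whether reads were counted by strand is not given in the sources used here.

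Across the rest of the Ets family, 19 of 24 genes were tested, with 13 called higher and 1 lower, beside 26% and 5.22% of all genes tested, and a median log2 fold change of 0.64, beside 0.42. Ets2 rose from 67.2 to 117 TPM (limma adjusted p = 0.0105) and the repressor Erf from 65.3 to 114 TPM (limma adjusted p = 0.0113). Etv5, a target and effector of fibroblast growth factor signals, rose from 16.45 ± 7.76 to 52.9 ± 8.97 TPM (SD, n = 3 each; log2 fold change 1.74, limma adjusted p = 0.0186). The gene that fell was Fli1, a factor of megakaryocytes and endothelium, from 110 ± 52.6 to 18.6 ± 7.65 TPM (SD, n = 3 each; log2 fold change -2.48, limma adjusted p = 0.0130). All 8 megakaryocyte markers fell too, with a summed level of 3222 to 9383 TPM at E16.5, against 94.6 to 748 TPM at E18.5; their part in the Fli1 value was not tested. The number of Ets genes called was 6 with median-of-ratios scaling and 4 without replicate A of E18.5.

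Klf5 (ENSMUSG00000005148.7, chromosome 14, 99298691 to 99315036, forward strand) measured 18.2, 10.6 and 2.04 TPM at E16.5, against 11.9, 14.1 and 17.7 TPM at E18.5. The E16.5 libraries spanned 8.90-fold, the widest of any member but Ovol1, and enclosed all E18.5 values. The change was 0.81 on the log2 scale (SE 0.62, limma adjusted p = 0.333, 95% interval -0.66 to 2.28). Without replicate C of E16.5 it was 0.048 (limma adjusted p = 0.915), and without replicate A it was 1.38 (limma adjusted p = 0.116). Replicate A of E16.5, with the highest Klf5 value, is the library with acinar transcripts, whose part in this value was not tested. Of the other 16 Klf genes, 14 were tested, and Klf3, Klf9, Klf11, Klf13 and Klf16 were called higher and Klf12 lower, the last 4 of these 6 being named after their values were seen. These counts, 5 higher and 1 lower of 14, are near the 26% and 5.22% of all genes tested. Klf9, which responds to glucocorticoid and thyroid hormone, rose from 9.75 ± 1.69 to 45.8 ± 7.52 TPM (SD, n = 3 each; log2 fold change 2.12, limma adjusted p = 0.00465). Without replicate A of E18.5, 2 of the 16 were called. Klf4, a factor of barrier epithelia, was at 5.13 and 16.3 TPM (limma adjusted p = 0.0635), and Klf6, at 110 and 195 TPM, was not called (limma adjusted p = 0.0926).

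Ovol1 (ENSMUSG00000024922.1, chromosome 19, 5549136 to 5560646, reverse strand) was barely detected and, with a mean under 1 TPM, did not enter the test. With no filter on low values its log2 fold change was -0.21 (limma adjusted p = 0.791), and the exact permutation test gave p = 0.9 (two-sided). It measured 2.65, 0.354 and 0.259 TPM at E16.5, against 0.353, 1.08 and 0.425 TPM at E18.5, on 66, 8, 6, 7, 16 and 5 reads. Only replicate A of E16.5 stood out, with an exact 95% counting interval of 2.05 to 3.38 TPM, against 0.617 to 1.75 TPM in the next highest library, replicate B of E18.5. Replicate A of E16.5 also had the highest summed levels of acinar and of gut and gallbladder markers, whose part in this value was not tested. A count of 3 reads was worth 0.121 to 0.255 TPM in these libraries. These intervals cover counting error only. Ovol1 also shares 19.8% of its exon sequence with Gm31166 on the opposite strand. Its relative Ovol2, which represses Zeb1 in other epithelia, was the more abundant and rose from 1.97 ± 1.20 to 6.49 ± 1.15 TPM (SD, n = 3 each; log2 fold change 1.42, limma adjusted p = 0.030), although this call was lost with median-of-ratios scaling, with quantile normalization and without any single E18.5 library. Ovol3 was at 0.387 and 1.41 TPM and was not tested.

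Zeb and Snai genes are among those that Ovol factors restrain. Of 8 mesenchymal regulators, 3 were tested and 0 were called in the limma fit, with 1 at an unadjusted p under 0.05 and 1 called, lower, by voom on the recovered reads. With no filter on low values 1 of the 8 was called, and without replicate B of E16.5 1 was called. Zeb1 was at 10.96 ± 1.18 TPM at E16.5, against 12.04 ± 2.69 TPM at E18.5 (SD, n = 3 each; limma adjusted p = 0.692). Zeb2 was at 27.9 ± 10.9 and 12.7 ± 5.25 TPM (SD, n = 3 each; log2 fold change -1.09, limma adjusted p = 0.0706). Its stages narrowly did not overlap, with 16.9 TPM in the lowest E16.5 library and 16.8 TPM in the highest E18.5 library. Snai2 was at 3.14 and 3.90 TPM (limma adjusted p = 0.436). Of the 5 under the filter, picked after their values were seen, Twist1 had means of 0.0478 and 1.07 TPM and Foxc2 of 0.0613 and 0.534 TPM, in both cases with no overlap between the stages. Both were barely detected: Twist1 was at 0 in replicates B and C of E16.5 and Foxc2 in replicates A and B. The 53.3% of genes without overlap covers only genes averaging 1 TPM or more. The summed level of 9 mesenchyme markers was 170 to 331 TPM at E16.5, against 313 to 799 TPM at E18.5. That of 8 megakaryocyte markers was 3222 to 9383 TPM at E16.5, against 94.6 to 748 TPM at E18.5. The part of either in these levels, that of Zeb2 included, was not tested.

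Esrp2 (ENSMUSG00000084128.10, chromosome 8, 106130319 to 106136974, reverse strand) had the highest mean of the 8 genes at both stages and the narrowest spread over the 6 libraries. It measured 81.2, 69.6 and 70.9 TPM at E16.5, against 81.7, 68.3 and 71.0 TPM at E18.5, from 1251 to 3022 reads. The means were 73.9 ± 6.37 and 73.7 ± 7.07 TPM (SD, n = 3 each). Its log2 fold change was -0.0052 (SE 0.12, limma adjusted p = 0.976), and its 95% interval of -0.29 to 0.28 is narrow. Median-of-ratios scaling, which removes the general shift toward higher TPM, gave a log2 fold change of -0.45 (SE 0.12, limma adjusted p = 0.0536). Esrp2 stood above 92.9% of coding genes at E16.5 and above 90.8% at E18.5. It shares 5.05% of its exon sequence with Nfatc3 on the opposite strand.

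Esrp1 (ENSMUSG00000040728.15, chromosome 4, 11331933 to 11386783, reverse strand) had lower levels than Esrp2 in each of the 6 libraries. It measured 20.2, 12.4 and 4.61 TPM at E16.5, against 28.1, 32.4 and 24.6 TPM at E18.5, from 232 to 1214 reads. The lowest E18.5 library was above the highest E16.5 library, and replicate C was again the lowest of E16.5. The means were 12.4 ± 7.79 and 28.4 ± 3.92 TPM (SD, n = 3 each). On the log2 scale the change was 1.32 (SE 0.45, 95% interval 0.27 to 2.38) and missed the threshold (limma adjusted p = 0.0596). Over 16 alternatives the adjusted p ranged from 0.0372 to 0.174, and 4 of them called Esrp1 higher. Without replicate C of E16.5 the log2 fold change was 0.79 (limma adjusted p = 0.0656). Without replicate A of E16.5, the library with acinar transcripts and the highest Esrp1 value of that stage, it was 1.75 (limma adjusted p = 0.0372).

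**Figure D2:**
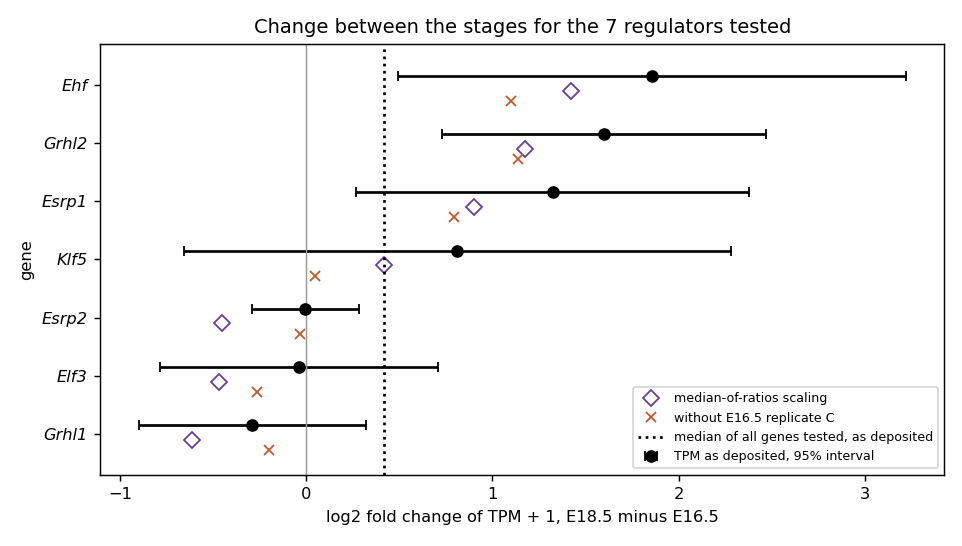
Log2 fold change of TPM + 1, E18.5 minus E16.5, of the 7 regulators tested, with 95% limma intervals (circles and bars), with median-of-ratios scaling (diamonds) and without replicate C of E16.5 (crosses); the dotted line is the median of all genes tested, 0.42. The intervals of Grhl2, Ehf and Esrp1 lie above 0, and those of Klf5, Esrp2, Elf3 and Grhl1 include 0.

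Other splicing regulators did not move as a block. Of 6 genes, 3 were called higher, beside 26% of all genes tested: Mbnl2, a Muscleblind protein, from 101 to 180 TPM (limma adjusted p = 0.00898), Qk from 56.8 to 86.6 TPM (limma adjusted p = 0.0177), and Rbm47, an RNA-binding protein of epithelia, from 58.9 to 84.6 TPM (limma adjusted p = 0.0180). Mbnl1 (log2 fold change -0.33), Rbfox2 (0.075) and Ptbp1 (0.21) were not called. With quantile normalization, and without replicate A of E18.5, 1 of the 6 was called. The mean of Esrp2 at E18.5, 73.7 TPM, lay between those of Mbnl1 (45.8 TPM) and Mbnl2 (180 TPM), the lowest and highest of the 6, whereas the mean of Esrp1 was below all 6 at both stages. Of 11 genes whose transcripts are known to be spliced under Esrp control, 9 were called higher, beside 26% of all genes tested, with a median log2 fold change of 0.65, beside 0.42. Fgfr2 rose from 74.7 ± 19.1 to 180 ± 14.6 TPM (SD, n = 3 each; log2 fold change 1.29, limma adjusted p = 0.0105) and Enah, an actin regulator, from 29.9 to 70.9 TPM (limma adjusted p = 0.0166). Csnk1d rose from 97.8 to 140 TPM (limma adjusted p = 0.0242). The other 2 genes of the list, named after their values were seen, were Cd44 (-0.60, limma adjusted p = 0.164) and Nf2 (0.46, limma adjusted p = 0.0510). The table gives 1 value per gene, so exon choice was not measured. The number called fell to 3 with median-of-ratios scaling and to 2 without replicate A of E18.5.

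In the order of mean levels, Esrp2 came first and Ehf came next at both stages. At E16.5 the order went on with Elf3, Esrp1, Grhl2, Klf5, Grhl1 and Ovol1, and the ranges of neighbours overlapped everywhere except between Esrp2 and Ehf. At E18.5 Grhl2 and Esrp1 stood before Elf3, followed by Klf5, Grhl1 and Ovol1. There the ranges of Ehf and Grhl2, of Klf5 and Grhl1, and of Grhl1 and Ovol1 did not overlap, while those of Esrp2 and Ehf did.

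Ratios of relatives within a library do not change when all genes of a library are scaled by a common factor. Quantile normalization can change them and was not applied to them. Of such ratios, 3 were formed after the values above had been seen. The ratio of Grhl2 to Grhl1 was 5.17, 6.56 and 1.53 in the E16.5 libraries and 14.6, 14.9 and 19.7 at E18.5. That of Ehf to Elf3 was 1.05, 1.73 and 0.407 at E16.5 and 3.07, 5.13 and 2.88 at E18.5, so that Elf3 was the more abundant of the pair in replicate C of E16.5 and Ehf in the other 5 libraries. That of Esrp1 to Esrp2 was 0.249, 0.178 and 0.0650 at E16.5 and 0.345, 0.474 and 0.347 at E18.5. In each pair all E18.5 ratios were above all E16.5 ratios. The levels of Grhl2, Ehf and Esrp1 alone already separated the stages, so these ratios add no separate evidence. The mean log2 ratios were higher at E18.5 by 2.12, 1.98 and 1.43 in that order, each with an exact permutation p of 0.1 (two-sided, the smallest that 3 against 3 can give) and 0.211 after Benjamini-Hochberg adjustment over 19 ratios. Without replicate C of E16.5 the differences were 1.48, 1.40 and 0.87.

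**Figure D3:**
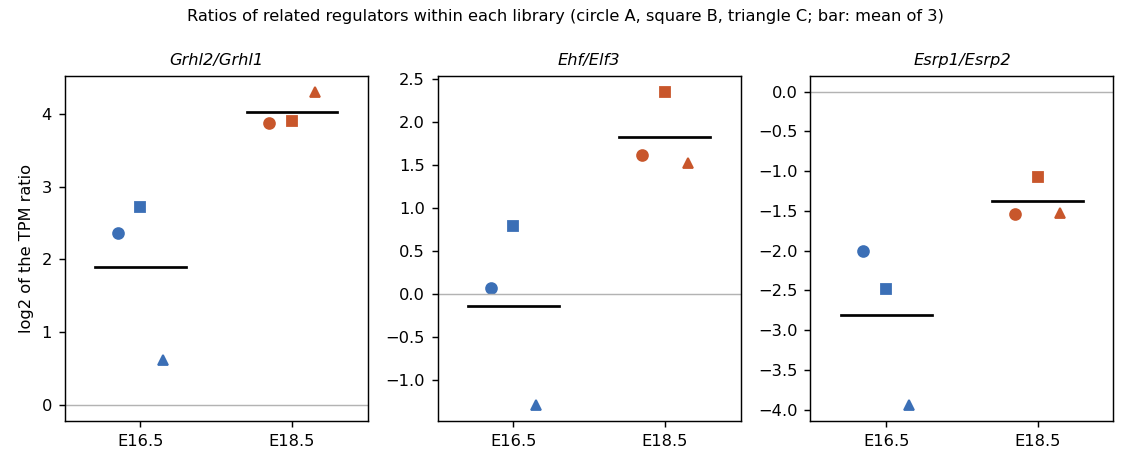
Log2 of the TPM ratio of Grhl2 to Grhl1, Ehf to Elf3 and Esrp1 to Esrp2 within each library, by stage, with circle, square and triangle for replicates A, B and C and a bar at the mean of 3. All E18.5 points lie above all E16.5 points in each panel, and replicate C of E16.5 is the lowest point of each.

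The regulators were also set against Epcam, the epithelial adhesion molecule of cholangiocytes. Epcam itself was at 105, 118 and 33.2 TPM at E16.5, against 273, 307 and 206 TPM at E18.5, with replicate C lowest at both stages. The ratio of Grhl2 to Epcam was 0.138, 0.126 and 0.151 at E16.5 and 0.128, 0.115 and 0.149 at E18.5, and so spanned 1.32-fold over libraries in which Epcam itself ran from 33.2 to 307 TPM. Of 15368 other genes that averaged 5 TPM or more, 20 had a ratio to Epcam that spanned as little or less (0.13%), and the median span was 6.21-fold. The mean log2 ratio of Grhl2 to Epcam differed by -0.087 between the stages (exact permutation p = 0.6, two-sided). The ratio to Sox9, which the sort used, likewise stayed between 0.0724 and 0.0926, a span of 1.28-fold that 41 other genes matched or undercut (0.267%). These shares describe a pair picked after its values were seen and are no test.

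Esrp1 and Ehf varied more against Epcam than Grhl2 did. The ratio of Esrp1 to Epcam was 0.192, 0.105 and 0.139 at E16.5 and 0.103, 0.106 and 0.120 at E18.5, a span of 1.86-fold (1.75% of other genes as narrow). That of Ehf was 0.293, 0.297 and 0.181 at E16.5 and 0.261, 0.223 and 0.365 at E18.5, a span of 2.02-fold (2.38% as narrow). Against Sox9, Esrp1 spanned 1.93-fold (4.54% as narrow) and Ehf 2.46-fold (9.62% as narrow). For neither gene did the stages separate in the ratio to Epcam (exact permutation p = 0.3 and 0.7, two-sided). The ratio of Klf5 spanned 3.96-fold, and its stages overlapped too (exact permutation p = 0.2). Grhl1, Elf3 and Esrp2 had ratios to Epcam that spanned 13.0-fold, 10.3-fold and 9.59-fold, and 76.6% to 85% of other genes spanned as little or less. In TPM as deposited, Elf3 and Esrp2 were near level and Grhl1 had a log2 fold change of -0.29 that was not called. With median-of-ratios scaling the changes of Grhl1, Elf3 and Esrp2 were -0.61, -0.47 and -0.45, none of them called. In TPM as deposited, the ratios mainly restate the rise of Epcam, and they add no separate evidence. They were lower at E18.5, with differences in log2 ratio of -2.21, -1.84 and -1.80 and no overlap between the stages (exact permutation p = 0.1 each, the smallest possible, and 0.211 after adjustment over 19 ratios).

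**Figure D4:**
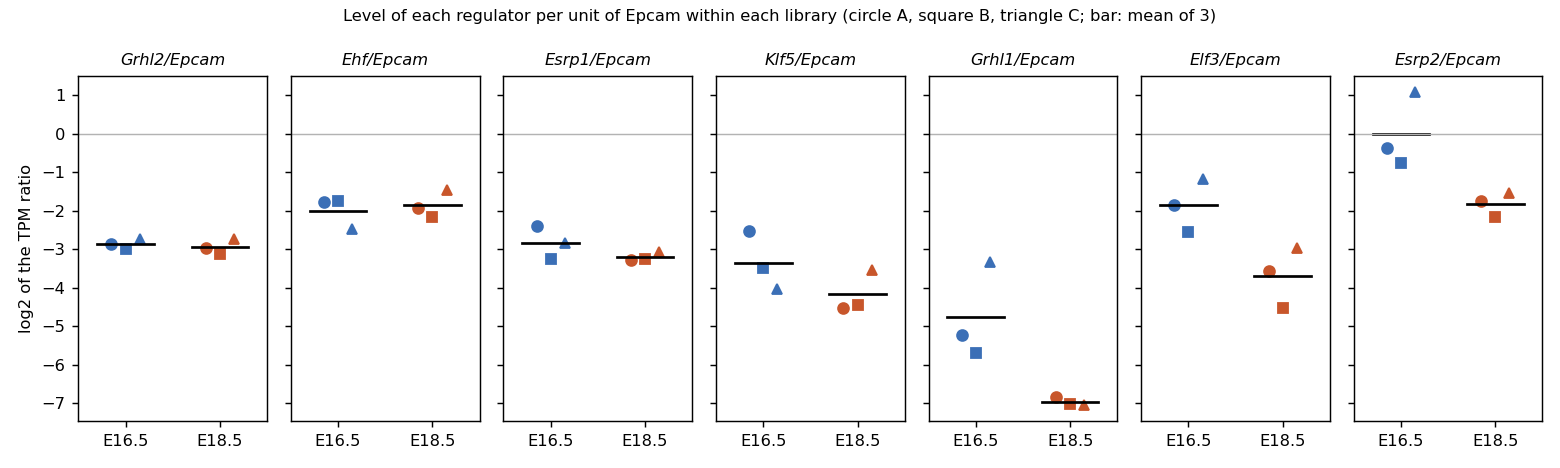
Log2 of the TPM ratio of 7 regulators to Epcam within each library, by stage, with circle, square and triangle for replicates A, B and C and a bar at the mean of 3. The ratio of Grhl2 stays within 1.32-fold over the 6 libraries, and those of Grhl1, Elf3 and Esrp2 are lower in all E18.5 libraries than in any E16.5 library.

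The members were also compared by profile, as the root mean square distance between log2(TPM + 1) values over the 6 libraries after each gene's mean is subtracted. The closest pairs were Grhl1 with Esrp2 at 0.227, Grhl2 with Esrp1 at 0.259, Elf3 with Esrp2 at 0.332 and Grhl2 with Ehf at 0.340. The farthest pair was Grhl1 with Ehf at 1.38, and relatives lay far apart, at 1.10 for Grhl1 and Grhl2, 1.13 for Elf3 and Ehf, and 0.854 for Esrp1 and Esrp2. Grhl1 and Esrp2 both varied little on this scale. To the mean profile of the 7 members tested, the nearest of 15364 other genes were the small nuclear RNA gene Gm26244 (0.0891), Tpgs1 (0.0901), Gpc1 (0.0996), Pxdn (0.10) and 9430031K09Rik (0.112), against a median of 0.445, and none of these 5 was called.

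Junction, polarity and surface protease genes, among them targets of Grainyhead factors in other epithelia, were then examined. All 20 were tested, and 15 were called higher in the limma fit, beside 26% of all genes tested, and 0 lower, beside 5.22%. At an unadjusted p under 0.05, 18 were higher and 0 lower, and voom on the recovered reads called 15 higher and 0 lower. Their median log2 fold change was 1.21, against 0.42 for all genes, and the stages did not overlap for 19 of them, beside 53.3% of all genes tested. With a filter of 5 TPM, 16 of the 20 were called, beside 5573 of 15370 genes called higher. The list was written with earlier results of these data known. Cdh1, the adhesion molecule E-cadherin, rose from 372 ± 116 to 896 ± 129 TPM (SD, n = 3 each; log2 fold change 1.31, limma adjusted p = 0.0156) and Epcam from 85.5 ± 45.6 to 262 ± 51.7 TPM (SD, n = 3 each; 1.78, limma adjusted p = 0.0288). St14, the membrane protease matriptase, rose from 17.0 ± 10.2 to 56.5 ± 7.15 TPM (SD, n = 3 each; 1.90, limma adjusted p = 0.0308), and its inhibitors Spint1 (1.52) and Spint2 (0.98) were also called higher. The claudin genes Cldn3 (1.59), Cldn4 (1.59) and Cldn7 (1.31) and the occludin gene Ocln (0.65) were called higher as well. F11r, a junction adhesion molecule, was at 180 ± 4.66 and 201 ± 11.7 TPM (SD, n = 3 each; 0.16, limma adjusted p = 0.243). Cgn (0.46), Lsr (0.47) and Prss8 (0.56) were among the others that missed the threshold. The genes named here beyond Cdh1, Epcam, St14 and F11r were chosen after their values were seen.

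Of the 5 genes whose promoter stretches are printed above, Spint1, Cldn7 and Ocln were called higher, whereas Elf3 and Cgn were not. Among all 20 junction genes, with or without the core, 15 were called higher, so a call does not set genes with the core apart. Cdh1 and St14 had no promoter in the search. The number of junction genes called fell to 3 with median-of-ratios scaling, to 1 without replicate A and to 2 without replicate B of E18.5, while 18 of the 20 had their lowest value in replicate C of E16.5. That library held the lowest value of 49.8% of all genes tested and of 5 of the 8 regulators. All 11 cholangiocyte markers were lowest there as well, and 9 of them were called higher at E18.5, beside 26% of all genes tested, with a median log2 fold change of 1.44. Sox9, which the sort used, is among these 9. Of 11 hepatoblast markers, 8 were called lower, beside 5.22% of all genes tested and without Alb (limma adjusted p = 0.146), with a median of -1.37. These counts also rested on single libraries: 1 cholangiocyte marker was called without replicate A and 3 without replicate B of E18.5, and 2 to 8 hepatoblast markers were called with single libraries left out. The part that this change in makeup had in the values of Grhl2, Ehf, Esrp1 and the junction genes was not tested.

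**Figure D5:**
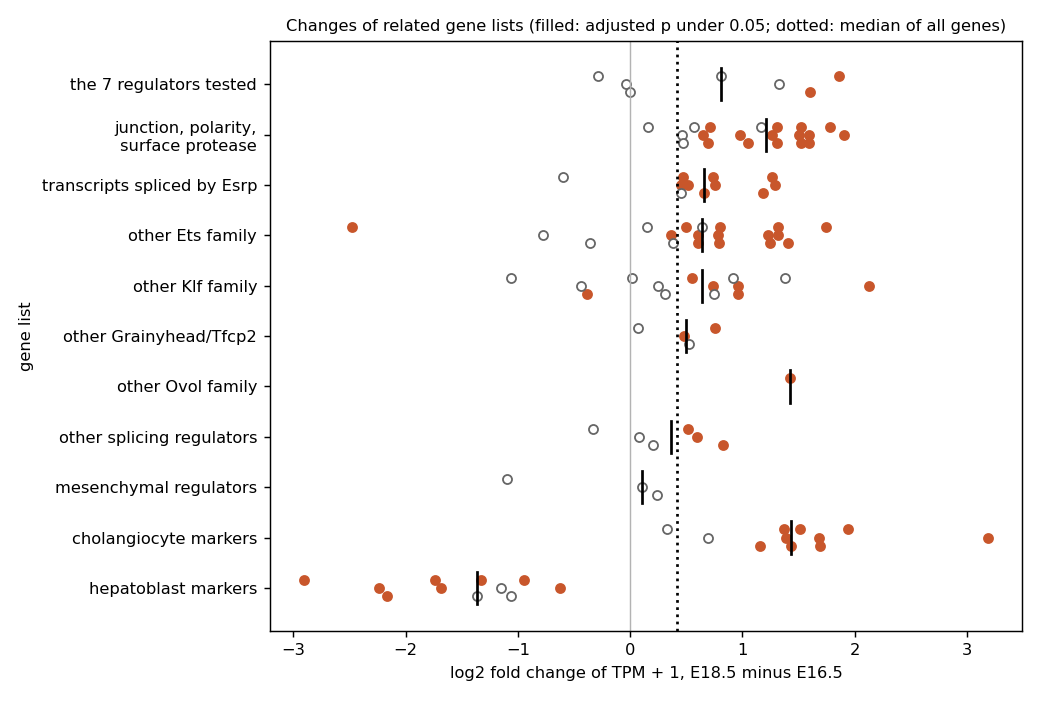
Log2 fold change of TPM + 1, E18.5 minus E16.5, of each tested gene of the regulators, the related gene lists and the cholangiocyte and hepatoblast markers; filled points have a limma adjusted p under 0.05, bars are list medians and the dotted line is the median of all genes tested, 0.42. Junction genes (median 1.21) and cholangiocyte markers (1.44) lie to the right, and hepatoblast markers (-1.37) to the left.

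Markers of other cells were measured as well. Summed endothelial markers were at 115 to 186 TPM at E16.5, against 105 to 209 TPM at E18.5, with Emcn alone called higher of 9, a call lost without any single E18.5 library. Mesothelial markers, another keratin-bearing epithelium, summed to 4.0 to 11.7 TPM at E16.5, against 42.0 to 85.5 TPM at E18.5, and all 5 of those tested were called higher. Gut and gallbladder markers summed to 70.8 to 139 TPM and 63.0 to 81.1 TPM, with Tff3 the 1 gene called, lower at E18.5. Leukocyte markers summed to 40.8 to 48.1 TPM and 73.3 to 124 TPM, and Csf1r was among those called higher, while no leukocyte marker was called with median-of-ratios scaling or quantile normalization. Erythroid markers summed to 347 to 358 TPM and 117 to 619 TPM, with Gata1 and Epor called lower of 10, and 0 of 8 proliferation genes were called in the limma fit (2 at an unadjusted p under 0.05, and 1 called, lower, by voom), against 4 with median-of-ratios scaling and 2 with quantile normalization. Which of these cells carried the Grainyhead, Ets and Esrp transcripts was not tested.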

How the data were processed

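RNA from sorted GFP-positive liver cells of 6 pools (3 per stage) was sequenced from stranded total RNA libraries. Per the labels and the study's methods, the authors used FastQC 0.11.7 for read quality and Trimmomatic for trimming. HISAT2 2.1.0 served for alignment to GRCm38 and HTSeq 0.5.4p3, with a GENCODE annotation, for the gene counts from which the authors made TPM. The submitters' processing notes also name Bowtie. The deposited table holds TPM for 52550 genes. TPM is relative to the library total, so a fall of abundant hepatoblast transcripts raises the TPM of other genes.

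Gene names, places and exon lengths came from GENCODE vM21 on GRCm38 (52403 identifiers matched, 147 did not; the marker symbol Tf was not matched). The reads behind each value are its TPM multiplied by the exon length over the value of 1 read, whole within 0.01; for Grhl2, Klf5 and Ovol1, whose gene model differed, the shortest length giving whole reads was used, and for Klf5 the reads (28 to 268) may be a multiple of these. Exact 95% intervals and the limit of 3 reads cover counting error only. No pair of libraries agreed within sampling noise.

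The test between stages was that of limma 3.58.1 (R 4.3.3), a linear fit with a trended eBayes step on log2(TPM + 1), which understates the change of low genes, over genes averaging 1 TPM or more. Exact permutation tests used Python 3.11.15 with scipy 1.17.1. Nothing in the sources used here says whether replicate letters mark shared litters, and p-values measure the spread between these pools. Named genes were all 8 regulators, every gene of lists of up to 6, of longer lists the 2 with the highest mean and the 2 with the largest absolute change, of marker lists the 2 highest, and the 5 nearest profiles; further names were chosen after their values were seen, as were the ratios and their spans. The members and lists were chosen with earlier results of these data known. Alternatives were a pseudocount of 0.1, no filter or one of 5 TPM, eBayes without trend or robust, voom on recovered reads, a replicate block, and leaving out each library. Other scalings were quantile normalization, median-of-ratios, and TPM recomputed without haemoglobin and small structural RNAs. Protein sequences were not used here, and values of some list genes are not reported here.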

Additional observations from a re-analysis of the deposited data

How the results depend on the processing

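The number of genes called, 7000, was 4282 with no filter on low values, 3862 with median-of-ratios scaling and 3796 with quantile normalization, and 1148 to 5432 with single libraries left out, lowest without replicate A of E18.5 and 2499 without replicate B. The share of calls that were higher at E18.5 was 83.3%, against 39.5% with median-of-ratios scaling, 50.5% with quantile normalization, 67.7% without replicate A of E18.5 and 70.2% without replicate B. The number of regulators called, 2, was 1 with a pseudocount of 0.1, 1 with no filter, 1 with quantile normalization, 1 with eBayes without the trend, 1 with robust eBayes and 0 with median-of-ratios scaling, and it was 0 to 2 with single libraries left out. It was 0 without replicate A or B of E18.5, and 3, with Esrp1 added, with a filter of 5 TPM and with TPM recomputed without haemoglobin and small structural RNAs. The cause was not tested. Changes near 0 turned sign: Elf3, at -0.038, ranged from -0.27 to 0.24 with single libraries left out, and Esrp2, at -0.0052, was 0.011 with TPM recomputed without haemoglobin and small structural RNAs and ranged from -0.081 to 0.064 with single libraries left out. With median-of-ratios scaling Elf3 was at -0.47 and Grhl1 at -0.61 (limma adjusted p = 0.351 and 0.136). With quantile normalization they were at -0.42 and -0.70 (limma adjusted p = 0.407 and 0.119). Grhl2, Ehf, Esrp1 and Klf5 kept a positive change in all 16 alternatives and Grhl1 a negative one in all 15 that could be fitted. The differences in log2 ratio with single libraries left out were 1.48 to 2.53 for Grhl2 to Grhl1, 1.40 to 2.45 for Ehf to Elf3 and 0.87 to 1.83 for Esrp1 to Esrp2.

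Samples with the same replicate letter did not deviate together throughout (correlation of deviations -0.0425 for A, 0.0814 for B and 0.14 for C). Between unlike letters the correlations ran from -0.146 to 0.0842. With so few libraries per stage, these values cannot tell whether the letters mark pairs. With the letters as a replicate block, 7314 genes and 2 regulators were called. Ehf then had a limma adjusted p of 0.0549 and Esrp1 one of 0.0460.

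With 3 pools per stage, intervals of the regulators other than Esrp2 were wide, and leaving out replicate A or B of E18.5 ended both calls. Ovol1 rested on 5 to 66 reads. Exon choice, protein and the cells of origin were not measured.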
